A study of Homo sapiens with 2 samples.

Results

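Broad footprints of SNRPA1 are described here: places where CLIPper, a peak caller for crosslinking data, reported several neighbouring intervals on one strand. The 7651 distinct CLIPper intervals were joined when 50 nt or less separated them, and a joined region was kept when it held 3 or more distinct intervals, each with under 100 reads. This left 35 regions with 132 intervals, of 6442 joined regions in all. Members were thus selected on the number of intervals, the gaps between them and their reads, which are given as a description without a test. By span, 22 of the 35 were broad on the RNA, while the other 13 were about as long as a common CLIPper interval and were broad only in the number of intervals.

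SNRPA1, also called U2 A′, belongs to the U2 snRNP, which pairs with the intron's branch site in the course of splicing. With its partner SNRPB2 it binds a stem-loop of the U2 snRNA. In irCLIP, RNA crosslinked to a protein is trimmed, recovered with an antibody, ligated to a linker and sequenced, so that stacked reads mark where the protein, or a particle that contains it, lay on the RNA. A narrow stack can come from 1 contact, while several stacks side by side can come from several contacts on one transcript or from one stack that a caller divides.

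The series has 1 group of 2 biological replicates, all of MDA-231-LM2, a line selected for metastasis to the lung from human MDA-MB-231 breast cancer cells, with an antibody to endogenous SNRPA1. No treatment or genotype differs between the samples. The longer peak list names no sample and the shorter is pooled, so no value per replicate, no spread between replicates and no library depth can be given, and no control library was analysed here. The CLIPper list gives reads and a p-value per interval. The second list, called the height list below, gives the height of 1373 distinct peaks in tags. Reads, heights and p-values are the authors', and intervals on shares cover counting error only. No hg19 genome was at hand, so the sequences of the regions, their place in exons or introns and their overlap with repeats were not analysed here.

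Broad regions were rare, and most were longer than nearly all regions of 1 interval. Of joined regions under 100 reads, 5414 held 1 interval, 921 held 2 and 35 held 3 or more. Among the 35, 20 held 3 intervals, 8 held 4, 2 held 5 and 5 held 6. They made up 1.73% of all intervals and 2.38% of the summed reads, a sum in which reads that span abutting intervals may be counted more than once. Their spans ran from 32 to 287 nt with a median of 91 nt. Regions of 1 interval had a median span of 35 nt, 75% of them at or under 37 nt and the longest at 93 nt. Regions of 2 intervals had the same median of 35 nt and reached 157 nt at most. A second interval thus usually added no length, while members with a further one were often longer. This did not hold at high reads. At 50 to 99 reads the median span was 42 nt in broad regions and 42 nt in regions of 1 interval. The 43 regions of 3 or more intervals that reached 100 reads also had a median of 42 nt. Span follows in part from the joining rule and is a description only.

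**Figure D1:**
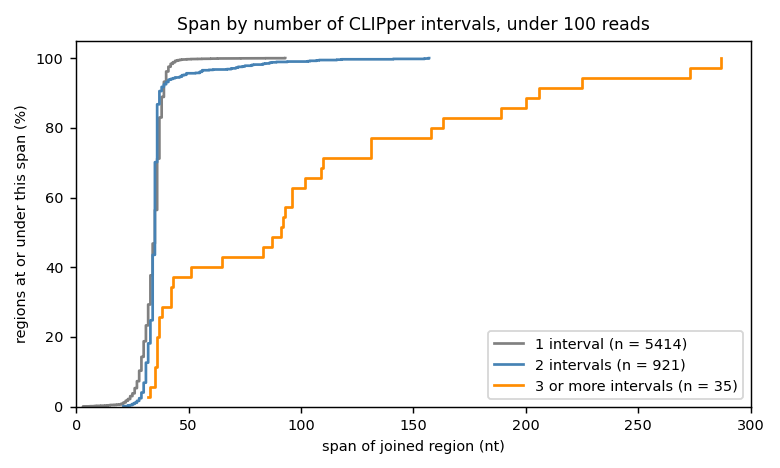
Cumulative share of joined regions (y axis, percent) at or under a given span (x axis, nt), for regions of 1 interval, 2 intervals and 3 or more intervals, all under 100 reads. The curves for 1 and 2 intervals rise together around their median of 35 nt, while the curve for the 35 broad regions has a step up to 43 nt and then extends to 287 nt.

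How the intervals met differed between pairs and broader groups. In the 921 regions of 2 intervals, 849 pairs abutted with no base between them (92.2%), 54 overlapped and 18 were apart, and 93.7% of the pairs had equal reads. Over the 97 neighbouring pairs inside broad regions, 46 abutted (47.4%), 22 overlapped and 29 were apart, with a median gap of 18 nt, and 36.1% had equal reads. In all 22 overlaps the intervals were listed for different Ensembl genes, so 1 site was called under each of 2 genes with other bounds. Intervals inside broad regions were narrow, with a median width of 20 nt against 33 nt over the whole list, and 18.9% were 10 nt or less against 12.3%.

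The spans were divided into a short and a long set at the first wide gap in their order, with none between 43 and 51 nt. This division was made after the spans were seen, and other divisions were possible. CHEK1 at 51 nt and a region of ANKRD30BL at 65 nt lay next above it. Wider gaps separated these from each other and from the next region, at 83 nt. The 13 compact regions spanned 32 to 43 nt, a range under which 98.8% of regions of 1 interval also lay. The 22 extended regions spanned 51 to 287 nt, and only 1.16% of regions of 1 interval were longer than the compact limit. Each set was further divided by whether the intervals were listed under 1 Ensembl identifier or under several. This gave 14 extended and 7 compact regions with 1 identifier, and 8 extended and 6 compact regions with 2 identifiers.

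**Figure D2:**
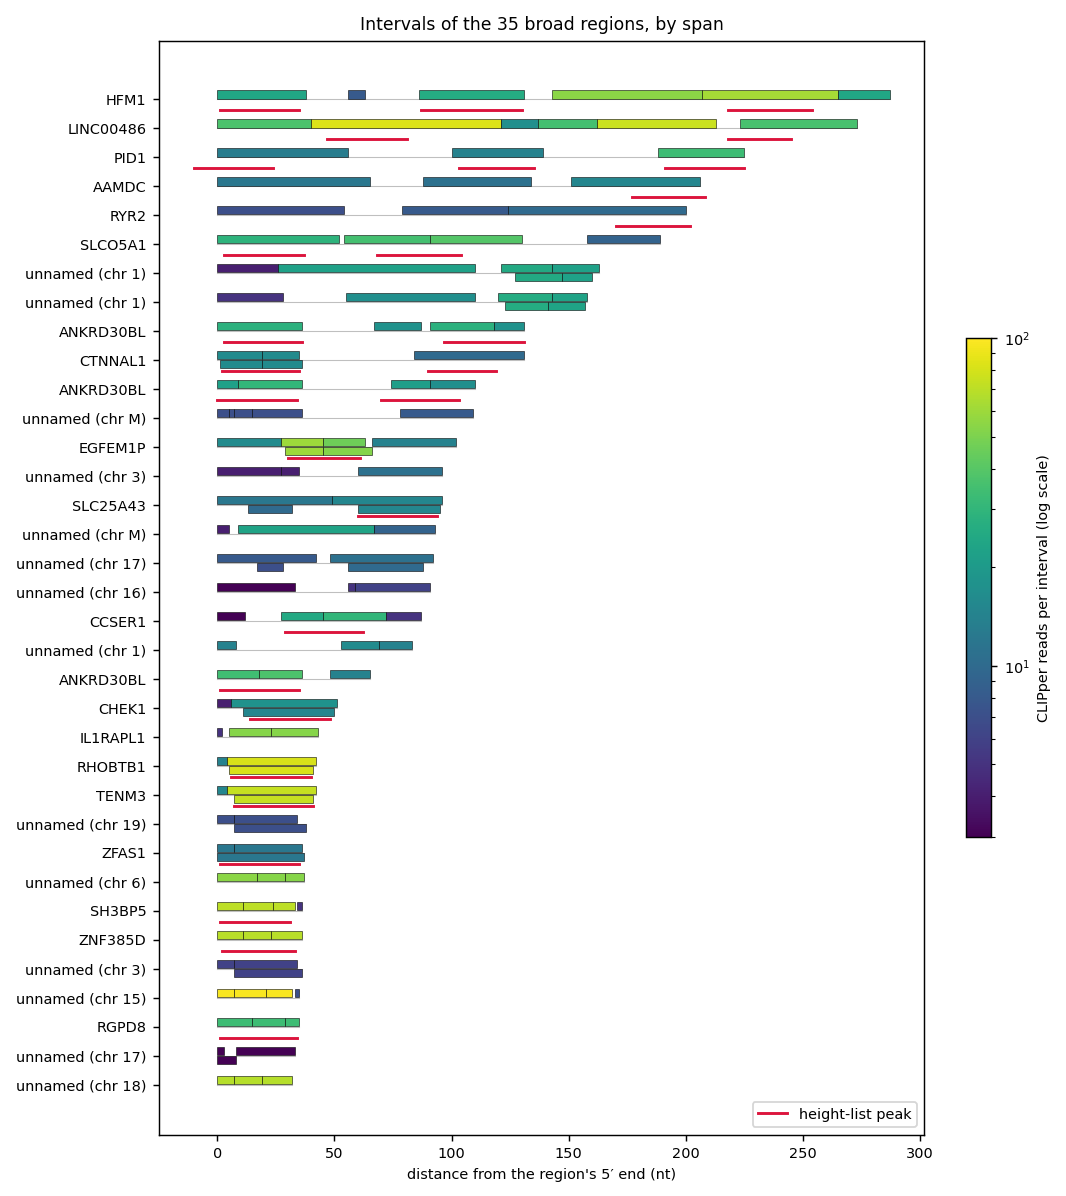
Each row is one of the 35 broad regions, ordered by span, with its CLIPper intervals as boxes placed by distance from the region's 5′ end (x axis, nt) and coloured by reads (log scale); overlapping calls are drawn on a lower line, and red lines are height-list peaks. Most of the upper rows hold at least 1 gap, although many of their intervals abut, as in LINC00486. The lowest rows hold boxes within 43 nt that mostly abut or overlap, with gaps of at most 3 nt.

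The longest footprints lay under a single gene identifier and were made of stacks of unlike height. HFM1, which encodes a helicase of meiotic recombination, had the longest, at 287 nt (hg19 chromosome 1, 91852809 to 91853095, minus strand). Its 6 intervals held 24, 8, 26, 54, 62 and 24 reads from 5′ to 3′, so the highest was the fifth and its neighbours on both sides were lower. The height list placed 3 peaks there, of 11 tags near the 5′ end, 17 tags on the interval of 26 reads and 21 tags on the interval of 62 reads. The interval of 54 reads, which abuts the highest one, held no height-list peak.

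LINC00486, a long noncoding RNA gene, had the next longest footprint, at 273 nt (chromosome 2, 33091811 to 33092083, plus strand). Its 6 intervals held 37, 83, 17, 35, 76 and 36 reads, which is a profile with 2 maxima separated by lower intervals of 17 and 35 reads. In the height list it had a peak of 25 tags on the interval of 83 reads and one of 8 tags on the last interval. The interval of 76 reads had none, although it was the next highest of the region.

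Other long footprints held 3 or 4 intervals. In PID1, a phosphotyrosine-interaction domain gene that acts in insulin signalling, 225 nt (chromosome 2, 230045487 to 230045711, minus strand) held 13, 14 and 33 reads in 3 stacks with gaps of up to 49 nt. Each of its stacks carried a height-list peak, of 5, 8 and 21 tags in the same order, so here the lists divide the region alike. SLCO5A1, an organic anion transporter family gene, had 29, 35, 39 and 9 reads over 189 nt (chromosome 8, 70602291 to 70602479, minus strand) and peaks of 12 and 18 tags. In AAMDC, 206 nt (chromosome 11, 77597535 to 77597740, plus strand) held 12, 11 and 15 reads and 1 peak of 6 tags. RYR2, the cardiac ryanodine receptor gene, was the lowest of these, with 7, 8 and 10 reads over 200 nt (chromosome 1, 237766375 to 237766574, plus strand) and 1 peak of 3 tags. AAMDC and RYR2 were the flattest of the long footprints, since their highest interval had 1.36 and 1.43 times the reads of the lowest, against 7.75 times in HFM1 and 4.88 times in LINC00486.

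**Figure D3:**
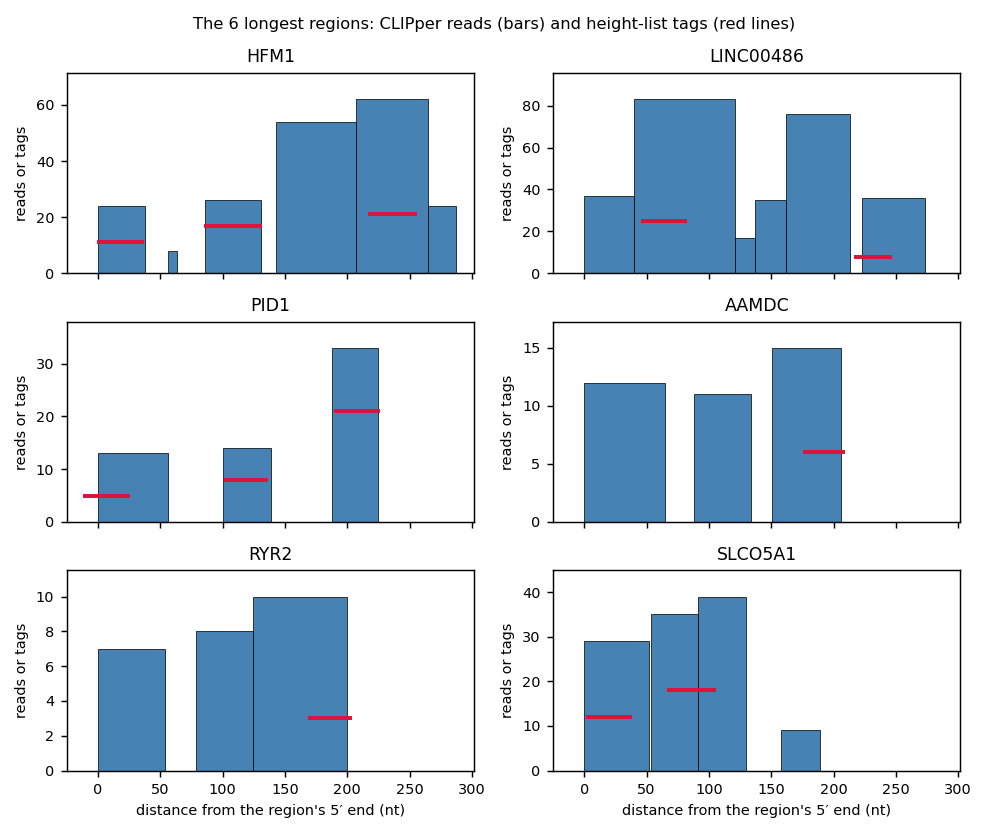
Reads per CLIPper interval (bars, as wide as the interval) and height-list peaks (red lines at their height in tags) against distance from the 5′ end (nt) in the 6 longest regions. HFM1 and LINC00486 have unequal stacks up to 62 and 83 reads, and in PID1, AAMDC and RYR2 the highest bar is the last one.

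ANKRD30BL, an ankyrin repeat gene, held 3 of the 35 regions, more than any other identifier, within 725 nt of chromosome 2 on the minus strand. The region from 133012831 to 133012961 had 28, 18, 28 and 18 reads, so its maximum was tied. The region from 133012560 to 133012624 had 34, 37 and 14 reads, and the one from 133012237 to 133012346 had 22, 30, 21 and 17. Their height-list peaks were 15 and 20 tags, 25 tags, and 11 and 8 tags in the same order. Each of the 3 had 6 other joined regions within 1000 nt on its strand, which no other broad region had. They belong to 1 locus and are not independent sites. The RefSeq table lists a 5.8S ribosomal RNA copy, RNA5-8SP5, inside ANKRD30BL. Whether these regions, or the long ones in HFM1, LINC00486, PID1 and SLCO5A1, lie on ribosomal RNA-like or other repeated sequence was not tested, so their reads may come from other copies.

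Of the remaining extended regions with 1 identifier, CCSER1 had 3, 25, 30 and 5 reads over 87 nt (chromosome 4, 91596808 to 91596894, plus strand) and a peak of 11 tags. It had the steepest profile of the extended set, with a maximum 10.0 times its minimum. The other 4 had no height-list peak and could not be named here. They lay on chromosome 3 (48627233 to 48627328; 4, 4 and 11 reads), chromosome 16 (47539178 to 47539268; 3, 5 and 6 reads), chromosome 1 (147511010 to 147511092; 14, 16 and 14 reads) and the mitochondrial genome. Over all 14, the highest interval had 6 to 83 reads with a median of 29, every region had at least 1 gap, and 10 held a height-list peak.

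In 14 regions the intervals carried 2 gene identifiers. In 13 of them calls for the 2 genes overlapped, while on the mitochondrial genome they lay apart. All 7 such regions that could be named belonged to hosts that contain a gene or copy of a small RNA in the RefSeq table: U2 snRNA copies in EGFEM1P (RNU2-20P), CHEK1 (RNU2-35P), RHOBTB1 (RNU2-72P) and TENM3 (RNU2-34P), a copy of the 5.8S ribosomal RNA in CTNNAL1 (RNA5-8SP3), copies of U1 and 7SL in SLC25A43 (RNU1-67P, RN7SL118P) and the snoRNA genes SNORD12, SNORD12B and SNORD12C in ZFAS1. Of the 12 named hosts of regions with 1 identifier, 7 contained such a gene and 0 contained a U2 copy. Among all 1278 height-list genes in the table, 27.3% contained a small RNA gene and 1.96% a U2 copy. A second identifier arises where annotated genes overlap. A gene nested in the host is thus partly built into the group with 2 identifiers, and these counts are a description only. Containment was read on GRCh38.p14, another build than that of the intervals, so whether an interval lies on the copy was not analysed here. That genes with a U2 copy carry tall peaks was known when the hosts were looked up.

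In most of the extended regions of this kind, the stacks called for both genes were the high ones. EGFEM1P, a transcribed pseudogene, had 16, 60, 60, 46, 52 and 14 reads over 102 nt (chromosome 3, 168193055 to 168193156, plus strand), a block of high intervals in the middle flanked by low ones, and 1 peak of 42 tags. CTNNAL1, which encodes an alpha-catenin-like protein, had 4 calls of 16 reads at its 5′ end, 1 stack of 10 reads further 3′ and peaks of 16 and 8 tags (chromosome 9, 111754688 to 111754818, minus strand). SLC25A43, a mitochondrial carrier family gene, had 12, 10, 15 and 15 reads with 1 peak of 15 tags. CHEK1, the checkpoint kinase gene, had 4, 18 and 15 reads over 51 nt with 1 peak of 7 tags. An Ensembl gene without a name here, ENSG00000058453.12, held 2 regions of 6 intervals, on chromosome 1 at 17067015 to 17067172 and at 17222475 to 17222637. Their reads ran alike: 5, 17, 26, 26, 23 and 23 in one and 4, 22, 25, 25, 22 and 22 in the other. In both the low interval lay at the 5′ end, both were called under a second identifier at the 3′ end, and neither held a height-list peak. Whether the same reads were placed at both was not tested, so these 2 regions may not be independent sites. The last 2 lay on chromosome 17 (18967236 to 18967327; 8, 7, 11 and 10 reads) and on the mitochondrial genome.

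The compact regions with 1 identifier were made of narrow neighbouring intervals of nearly equal reads, at times with a short low one at an end. ZNF385D, a zinc finger gene, had 69 reads in each of its 3 intervals over 36 nt (chromosome 3, 21625961 to 21625996, minus strand) and 1 peak of 32 tags. RGPD8, a member of the RANBP2-like multigene family whose near-identical copies make its assignment uncertain, had 33 reads in each of 3 intervals (chromosome 2, 113168829 to 113168863, minus strand) and 22 tags. SH3BP5, which encodes an exchange factor for Rab GTPases, had 71, 71, 71 and 5 reads over 36 nt (chromosome 3, 15350843 to 15350878, minus strand) and 63 tags, the tallest height-list peak in any broad region. IL1RAPL1, a neuronal receptor gene named here through a peak elsewhere in it, had 5, 53 and 53 reads and no height-list peak. The unnamed regions on chromosome 15 (85238983 to 85239017; 97, 97, 97 and 7 reads), chromosome 18 (24278052 to 24278083; 68 reads in each of 3) and chromosome 6 (31466231 to 31466267; 54, 53 and 53 reads) also had none. All 7 reached 33 reads or more, with a median of 68, so this set was higher in reads than the extended regions with 1 identifier and 4 of its 7 members still lacked a height-list peak.

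None of the 6 compact regions with 2 identifiers had 3 intervals under either identifier, so each reached the rule through double calls. RHOBTB1 had 14, 81 and 81 reads over 42 nt (chromosome 10, 62672636 to 62672677, minus strand) with 60 tags. TENM3, which encodes a teneurin adhesion protein, had 15, 73 and 73 reads over 42 nt (chromosome 4, 183469819 to 183469860, plus strand) with 49 tags. Both began with a 4 nt interval of low reads at the 5′ end. ZFAS1, a noncoding host gene of snoRNAs, had 12 reads in each interval and 5 tags. The other 3, on chromosomes 19, 3 and 17, had 7, 6 and 3 reads in every interval and no height-list peak. With the extended regions included, 9 of the 35 reached 3 intervals only when calls for both genes were counted, and 26 did so under 1 identifier.

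In 18 of the 35 regions the highest read number was shared by several intervals, 12 of them compact, so the place of the maximum can be given only for the others. Of these 17, 1 had its maximum in the 5′-most interval, 10 in an inner interval and 6 in the 3′-most. Equal chances for each interval would give 4.87, 7.27 and 4.87. With ties given to the 5′-most of the tied intervals, 34.3% of all 35 had the maximum at the 5′ end, so the low count there holds only for regions without a tie. In CHEK1 and in the region on chromosome 17 at 18967236, counted as inner, the highest interval contains the last call, which is for the other gene. With overlapping calls merged into 1 site, a setting added after the data were seen, 23 regions had no tie, and the maximum was at the 5′ end in 1, inner in 9 (39.1%) and at the 3′ end in 13. The 1 case at the 5′ end was the compact region on chromosome 6, where 54 reads stand beside 53, so among the 16 extended regions without a tie the count was 0 of 16 (95% Wilson interval 0 to 19.4%). The 6 with the maximum at the 3′ end were PID1, AAMDC, RYR2, those on chromosomes 3 and 16 and one on the mitochondrial genome, 4 of which had 11 reads or fewer at the top and differed by 1 to 7 reads from the lowest interval. Regions outside the rule gave an unlike and a like picture. In 58 regions of 2 intervals with unequal reads, 42 had the higher one at the 5′ end (72.4%, 59.8 to 82.2), while in 43 regions of 3 or more intervals that reached 100 reads, 1 of 23 without a tie did (4.35%, 0.772 to 21.0). No test is given, since all the regions come from the same pooled reads.

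A height-list peak was present in 20 of the 35 broad regions (57.1%, 95% Wilson interval 40.9 to 72.0), against 20.3% of all 6370 joined regions under 100 reads and 20.2% (19.2 to 21.3) of those with 1 interval. Without the 3 ANKRD30BL regions, which belong to 1 locus, the broad share was 53.1% of 32 (36.4 to 69.1). Broad regions had more reads, with a median of 28 in the highest interval against 5, so shares were set beside each other at like reads. With 10 to 99 reads at the top, 66.7% of 30 broad regions (48.8 to 80.8) and 42.4% of 769 regions of 1 interval (38.9 to 45.9) held a peak. By narrower ranges the shares were 66.7% of 9 and 42.4% of 564 at 10 to 19 reads, 70.0% of 10 and 42.6% of 188 at 20 to 49 reads, and 63.6% of 11 and 41.2% of 17 at 50 to 99 reads. In each of these 3 ranges the broad share was the higher one and the Wilson intervals overlapped. Under 10 reads the order was the reverse: 0 of 1 broad region and 7.47% of regions of 1 interval held a peak at 3 to 4 reads, and 0 of 4 against 28.9% at 5 to 9 reads. In the 3 ranges from 10 reads up, regions of 2 intervals held a peak in 44.6% of 56, 41.7% of 48 and 50% of 14. Without the read limit, 48.7% of 78 regions of 3 or more intervals held one (37.9 to 59.6). A broad region also offers more length to overlap: counted by interval, 53 of 132 (40.2%) lay on a height-list peak. The part that length has in the difference was not tested.

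**Figure D4:**
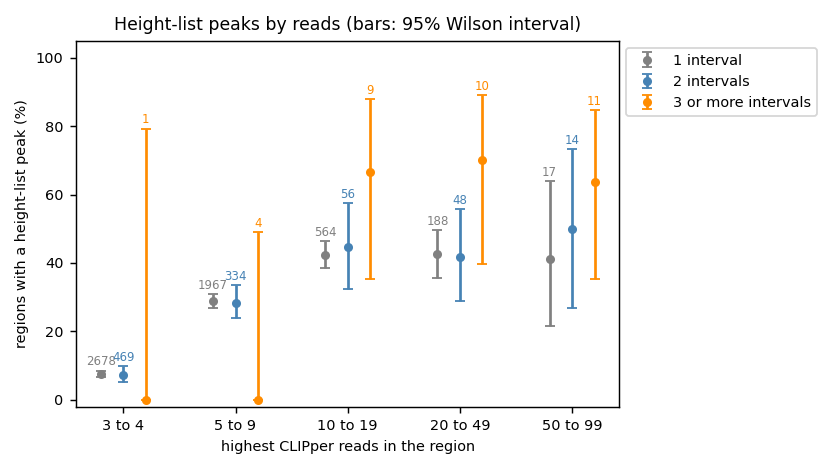
Share of joined regions with a height-list peak (y axis, percent; bars are 95% Wilson intervals, numbers are regions) by highest CLIPper reads (x axis) for regions of 1, 2 and 3 or more intervals. From 10 reads up, broad regions lie at 63.6 to 70.0% and regions of 1 interval at 41.2 to 42.6%, with overlapping intervals.

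The height list had fewer peaks than CLIPper had intervals in the broad regions. The rule favours this, since members were kept for 3 or more CLIPper intervals. The 20 regions held 29 peaks: 13 held 1 peak, 5 held 2 (LINC00486, SLCO5A1, CTNNAL1 and 2 of ANKRD30BL) and 2 held 3 (HFM1 and PID1). No region of 1 interval held more than 1, but with a median span of 35 nt most had little room for a second. Neighbouring peaks in 1 region were 66 to 168 nt apart from centre to centre, with a median of 90.5 nt. The tallest peak overlapped an interval with the highest reads in 20 of 20 regions, 14 of them extended. In a compact region nearly any peak would do so, and in some extended ones too: in CHEK1 the top interval filled 45 of 51 nt. Both lists come from the same series, so this overlap is a description and not an independent check. The peaks were tall for this list, with a median of 15 tags against 4 over all 1373, and the broad regions held 11 of the 52 peaks of 20 or more tags (21.2%) but 2.11% of all peaks. The read limit bounds this from above, since the tallest sites of the series are not members. The medians of 15 and 4 tags and the share of 21.2% were not taken at like reads. With 10 to 19 reads at the top, the median tallest peak was 6.5 tags in broad regions and 6 in regions of 1 interval. It was 20 and 10 tags at 20 to 49 reads, and 42 and 14 at 50 to 99 reads. In regions of 2 intervals it was 5, 15 and 26 tags over the same ranges.

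Tags and reads were not in a fixed ratio. Per 100 reads of the highest interval, the tallest peak had 30.0 to 100 tags, with a median of 55.0. Among the long footprints RYR2 had 30.0, LINC00486 30.1, HFM1 33.9, AAMDC 40.0, SLCO5A1 46.2 and PID1 63.6, and the median over the 10 extended regions with 1 identifier and a peak was 38.3. It was 88.7 in SH3BP5 and 74.1 in RHOBTB1, and in SLC25A43 and CTNNAL1 tags equalled reads. Over all regions of 1 interval with a peak the median was 60, above that of the broad regions, whereas among regions with 20 to 99 reads and a peak it was 65.2 in 14 broad regions and 37.0 in 87 regions of 1 interval. No source used here says whether repeated reads were removed before CLIPper was run, so reads and tags may be unlike counts.

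**Figure D5:**
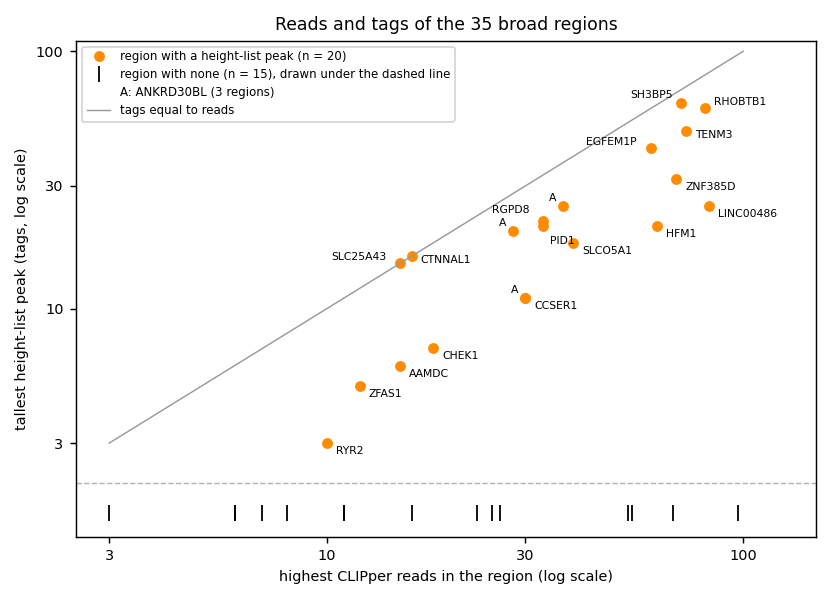
Tallest height-list peak (tags, log scale) against the highest CLIPper reads (log scale) for the 20 broad regions with a peak, with the 15 others as ticks under the dashed line. SLC25A43 and CTNNAL1 lie on the line of equal tags and reads, LINC00486 and HFM1 lie well under it, and 4 regions with 50 or more reads have no peak.

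The 15 regions without a height-list peak were lower on the whole but not uniformly so. Their highest interval had 3 to 97 reads with a median of 16, against a median of 33 in the 20 with a peak, and the ranges overlap widely. The 4 with 50 or more reads were IL1RAPL1 and those on chromosomes 15, 18 and 6, all compact. Both broad regions of the mitochondrial genome were among the 15. They had 8 and 23 reads at the top, one with 7, 7, 7, 7 and 8 reads over 109 nt and the other with 4, 23 and 9 over 93 nt, and they were 2 of 34 joined regions there. The height list had 0 peaks on the whole mitochondrial genome.

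Of the 19 named hosts, 16 were protein-coding (84.2%, against 94.4% of height-list genes in the table) and 2 were long noncoding RNA genes. The protein-coding hosts were 55.1 to 1478 kb long with a median of 144 kb, near the 130 kb of all protein-coding genes of the height list. The regions lay on 17 chromosomes including the mitochondrial one, 20 on the plus and 15 on the minus strand, and 0 had a CLIPper interval on the opposite strand within their span. Another joined region on the same strand lay within 1000 nt of 9 of the 35 (25.7%, 14.2 to 42.1) and of 160 regions of 1 interval (2.96%, 2.54 to 3.44). Of the 9, 3 were those of ANKRD30BL, which count as neighbours of each other, and 2 mitochondrial. The interval on the share does not allow for this. Members were selected for intervals that lie close together, and reads were not matched, so both shares are a description only. Of the 19 named hosts, 0 were in the 8 lists of nuclear genes looked up (U2 snRNP proteins, hnRNP proteins, SR proteins, nuclear long noncoding RNAs, ribosomal proteins, translation factors, chromatin regulators, cytoskeleton and adhesion genes). The lists hold 45 of the height-list genes (3.52%), a share that would give 0.669 of 19 hosts, so the 0 carries no information. Mitochondrially encoded genes could not be looked up this way, since hosts are named through height-list peaks.

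At the bounds of the rule, the members with the most reads were the region on chromosome 15 at 97, LINC00486 at 83 and RHOBTB1 at 81. Just outside were SKA2 at 101 reads with 4 intervals over 48 nt, DONSON at 109 with 3 over 34 nt and PDE3A at 112 with 5 over 117 nt, and in all 43 regions of 3 or more intervals were left out for reaching 100 reads. The widest gap joined inside a member was 49 nt, in PID1, and the nearest region left outside was 72 nt from one of ANKRD30BL.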

How the data were processed

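The 2 irCLIP libraries of MDA-231-LM2 form 1 group. The build was hg19, and cutadapt 1.10 and BWA 0.7 are named, per the submitters' processing notes. The authors deposited a CLIPper list with a p-value per interval (up to 0.0499), reads in the interval's name and a summit position, and a height list whose signal is the peak height in tags (P up to 0.0494), pooled per its file name. No source used here names the caller of the height list, and depth per replicate is unknown.

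The 8053 and 1454 entries gave 7651 and 1373 distinct intervals. Regions were joined, kept and ordered from 5′ to 3′ as the text states. Overlap means 1 nt or more on one strand. Genes were named through height-list peaks and the RefSeq table of GRCh38.p14 (1278 of 1286 Entrez identifiers), used only for names, types, lengths and containment. A region was described singly if among the 10 highest by intervals, span, summed reads or tallest peak, or one of several under 1 identifier; the rest were described after their values were seen. Shares carry 95% Wilson intervals, and the median span a binomial interval. Members and lists were chosen with earlier results of these data known. Joining, overlap with peaks and place of the maximum were tested on simulated intervals under 1 identifier, without overlapping calls or ties, so double calls and ties were not covered. Alternatives covered gaps, read limits, thresholds, overlap and ties. The work ran in Python 3.11.15 with pandas 2.3.3, numpy 2.4.6, matplotlib 3.10.9 and scipy 1.17.1.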

Additional observations from a re-analysis of the deposited data

How the results depend on the processing

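Of 78 alternatives to 8 results, 57 stayed within the 95% interval of the reported value or, for counts, within 1.5 times; 20 of the 78 were added after the data were seen. With 4 or more intervals required, 15 regions remained by construction, with a median span of 110 nt, 17 height-list peaks, 1.35% of reads and the maximum inner in 85.7% and at the 5′ end in 0% of 7 without a tie. Without the read limit there were 78 regions with a median span of 46.5 nt, 52 peaks and 57.9% of reads. At a joining gap of 25 nt the median span was 51 nt. Both medians lie within the interval of the reported one, which is wide. With every interval under 50 reads the regions held 19 peaks and 0.885% of reads, and 0% had the maximum at the 5′ end. That share was also 0% over extended regions alone, and 34.3% when ties went to the first interval. The share of reads was 2.53% at a joining gap of 100 nt, 2.22% with CLIPper p under 0.001, 2.02% with 3 intervals under 1 identifier and 2.21% without ANKRD30BL. Regions of 1 interval held a height-list peak in 33.8% of cases with CLIPper p under 0.001, 9.44% with height-list P under 1e-5 and 42.4% with 10 to 99 reads. The share of broad regions with a peak ranged from 48.7% without the read limit to 69.2% with CLIPper p under 0.001. No paired analysis was possible because there is only 1 group, and no replicate could be left out since neither list separates the libraries.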
